A study of Mus musculus with 32 samples.

Results

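The comparison was between olfactory bulbs of Tshz1 mutant and control mice at postnatal day 30 (P30), and its members were 16 of the 32 arrays of the series: the 8 whose labels give a P30 mutant and the 8 whose labels give a P30 control. Tshz1 encodes a zinc finger transcription factor. Control mice carried 1 floxed and 1 wild-type Tshz1 allele (flox/+), and mutants carried 1 floxed allele and 1 GFP allele (flox/GFP). Both groups were heterozygous for Nestin-Cre (+/Cre), so the recombinase was present in controls as well, and both were aged 30 days on the mixed background given as C57/BL6;129/Ola; CD1. The other arrays were bulbs of embryos (E18.5), 8 GFP/+ controls and 8 GFP/delta mutants without Cre, and they enter only a comparison of the ages at the end. The record states that titles and genotypes of the P30 samples were exchanged between the groups after deposit at the submitter's request, and the exchanged labels were used. Tshz1 itself was not analysed here, which leaves the exchanged labels without a check on the deleted gene.

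The olfactory bulb receives the axons of olfactory sensory neurons in its glomeruli, and mitral and tufted cells carry the signal on to the cortex. Most of its neurons are inhibitory interneurons, the granule cells of the deep layer and the periglomerular cells around the glomeruli, which are born in the ventricular wall and migrate into the bulb before and after birth. Nestin-Cre recombines in neural progenitors, so their neuronal and glial descendants are affected, while microglia and endothelial cells arise from other lineages. The genotypes also differ in cells without recombination, where mutants carry a GFP allele and controls a wild-type allele in its place. The labels do not say that the 8 samples of a group are separate animals, and p-values therefore measure the spread between these samples.

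Each group was spread evenly over 2 chips, called A (replicates 1 to 4) and B (replicates 5 to 8), with 4 controls and 4 mutants on each. Probes were detected at similar rates, 45.6% ± 2.1 of 25697 probes in controls and 45.7% ± 3.7 in mutants (SD, n = 8 per group). On the first principal component, which held 32.9% of the variance, mutant replicates 1 and 2 (61.6 and 56.4) and control replicate 4 (27.4) lay highest. Mutant replicates 1 and 2 also had the fewest detected probes (40.2% and 40.1%). In these samples both the X-inactivation transcript Xist (7.51 and 7.12) and the Y-linked gene Eif2s3y (8.5 and 7.61, log2 normalized intensity) lay above every sample that was low for that transcript, which at its highest reached 6.43 for Xist and 4.84 for Eif2s3y. The main counts are therefore given with and without these 2 mutants. Within groups, the median SD over genes was 0.318 in controls, 0.367 in mutants and 0.288 in mutants without replicates 1 and 2.

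Of 9928 genes that passed the detection filter, 576 differed between mutant and control bulbs (limma, adjusted p under 0.05), which is 5.8% of the genes tested. Of these, 282 were higher (2.84%) and 294 lower (2.96%) in mutants. In 111 genes (1.12%) the 8 mutants and 8 controls did not overlap at all, 52 on the higher side (0.524%) and 59 on the lower (0.594%). Over all genes the median log2 change was 0.01, and the 5th and 95th percentiles were -0.53 and 0.51. Without mutant replicates 1 and 2, 549 genes were called, 290 higher (2.94%) and 259 lower (2.62%), and 399 of them were calls of the full comparison in the same direction. No gene passed a test of whether its change differed between the chips (limma, 0 of 9928 genes after adjustment, 442 or 4.45% at an unadjusted p under 0.05).

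**Figure D1:**
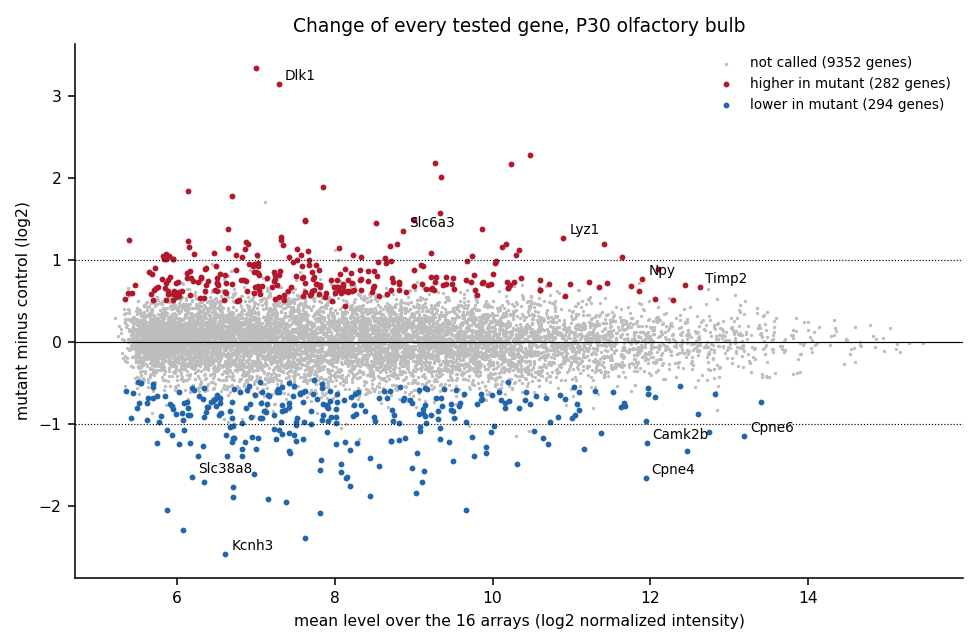
Change between mutant and control (log2, vertical axis) against mean level over the 16 arrays (log2 normalized intensity, horizontal axis) for every gene tested, with the 282 higher and 294 lower genes coloured and dotted lines at a 2-fold change. Called genes lie over the whole range of levels.

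Many of the changes were modest. Among the 163 genes whose fitted change was at least 2-fold, 60 were called higher and 93 lower. Among 584 genes between 1.5 and 2-fold, 189 were called higher and 176 lower, so that this middle range held most of the calls. Below 1.5-fold, 33 of 9181 genes were called higher and 25 lower. With genes split by mean level into 4 classes of equal size, from dimmest to brightest, the shares called were 4.47%, 7.82%, 6.49% and 4.43%.

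Most listed genes of granule cells were lower in mutants. Of 12 tested markers, 9 fell and 1 rose, beside 2.96% lower and 2.84% higher over all genes. The counts were the same without mutant replicates 1 and 2. The median log2 change was -0.72, beside 0.01 over all genes, and was -0.67 on chip A and -0.83 on chip B. Members of this and the other lists were chosen with earlier results of these data known, so list counts describe and do not test. The same shares over all genes stand beside the counts of every later list. Cpne4, a copine that binds membranes in a calcium-dependent way, lay at 12.12 to 12.97 (median 12.88) in controls and 10.48 to 11.90 (median 11.15) in mutants (log2 normalized intensity). It fell by 3.17-fold (-1.66 ± 0.18 on the log2 scale, SE; limma adjusted p = 3.22e-06), and no mutant reached the lowest control. Its relative Cpne6 measured 12.84 to 14.19 (median 13.88) in controls and 12.10 to 12.93 (median 12.70) in mutants. It fell by 1.15 ± 0.18 (limma adjusted p = 0.000281), and the groups overlapped only through control replicate 8, whose 12.84 lay under the other controls. Cpne9, also a copine, was lower (limma adjusted p = 0.00285) and was detected on 8 control but only 2 mutant arrays. In what follows a value in parentheses after a gene's name is its log2 change, mutant minus control. Where a gene was detected on 3 or fewer of the 8 arrays of a group, the detection count is given. The size of the fitted change then rests on signal at or near background in that group. A gene detected on no array of a group entered the test only through the other group. Its p-value is therefore no separate support for the difference. Gng4 (-1.25), a G protein gamma subunit, fell with no overlap, and Prkca (-1.14), a protein kinase C, fell with overlap. The homeodomain factors Meis2 (-0.67) and Pbx3 (-0.63) also fell. The other Pbx3 probe read -0.42 (limma adjusted p = 0.238 when every probe was tested). Camk2a, the alpha subunit of the calcium/calmodulin kinase of synapses, passed at 0.0368 by limma but not when any of 11 single arrays was left out (adjusted p up to 0.0723), and Dlx5, detected on 5 control and 1 mutant arrays, likewise with 11 (up to 0.0759). The riser was Ppp1r1b (0.81), which encodes the phosphatase inhibitor DARPP-32 and is also a marker of striatal neurons, and its other probe read 0.34 (limma adjusted p = 0.296). In bulk tissue, fewer cells of a type and less RNA per cell cannot be told apart.

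**Figure D2:**
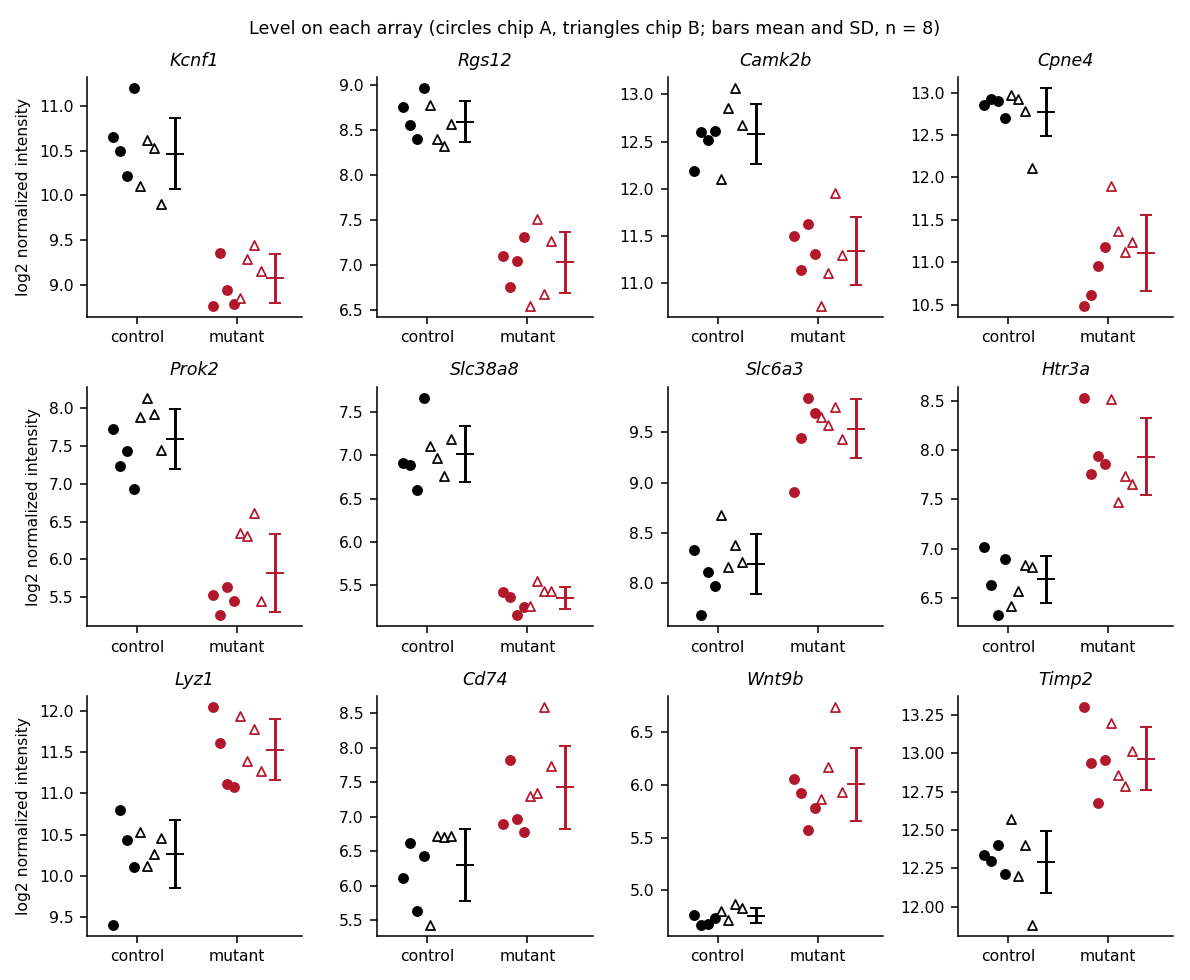
Level of 12 genes on each of the 16 arrays (log2 normalized intensity; circles chip A, triangles chip B; bars mean and SD, n = 8). The 12 genes were picked from the called genes, and none overlaps between groups. Over all genes tested, 111 (1.12%) did not overlap. Most called genes do overlap, so these 12 are not typical of them. In some of the 12 the gap between the groups is narrow beside the spread within them, as in Cd74 (controls up to 6.73, mutants from 6.77) and Timp2 (12.57 and 12.67). Control replicate 8 in Cpne4 and mutant replicate 1 in Slc6a3 lie apart from the rest of their group.

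Genes of the postsynaptic density fell alongside. Of 16 tested, 6 fell and 0 rose, 15 had negative changes, and the median was -0.61; without mutant replicates 1 and 2 the count was again 6 and the median -0.45. Icam5, the dendritic adhesion molecule telencephalin, measured 7.35 to 8.62 (median 8.18) in controls and 5.86 to 7.71 (median 6.76) in mutants. It fell by 2.52-fold (limma adjusted p = 0.000172) with a small overlap of the groups. Baiap2 (-0.89), which links membranes to actin, and Rasgrp1 (-0.74), an exchange factor of Ras, fell as well. The list shares Camk2a and Nrgn with the granule cell list and Arc with the immediate early genes. The 15 tested glutamate receptor genes held 1 fall and a median of -0.09. The fall was Cacng3, which did not pass when any 1 of 9 arrays was left out (adjusted p up to 0.0653). At an unadjusted limma p under 0.05 this list held 5 genes (33.3%), beside 18.8% of all genes tested. Of 31 genes of synaptic vesicle release, 3 were higher and 1 lower, beside 2.84% and 2.96% of all genes. Their median was -0.01. Rph3a (1.15) and Doc2b (1.23), both calcium sensors of exocytosis, were among the higher. Syt6 was lower (limma adjusted p = 0.00125), detected on 8 control and 2 mutant arrays, and its other probe read -0.54 (adjusted p = 0.072).

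Calcium and calmodulin signalling showed a similar tilt, with 5 of 33 tested genes lower, 1 higher and a median of -0.27. Over all genes 2.96% were lower and 2.84% higher. Camk2b, the beta subunit of the calcium/calmodulin kinase, was expressed at a high level, 12.10 to 13.06 (median 12.60) in controls and 10.76 to 11.96 (median 11.31) in mutants. The change was -1.24 ± 0.18 (limma adjusted p = 9.68e-05), and every mutant lay below every control. Slc8a1, a sodium/calcium exchanger, fell by 0.89 ± 0.15, and Hpcal4, a neuronal calcium sensor, fell by 0.90 ± 0.23. The member that rose was Caln1 (1.57), a calneuron.

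Among 29 potassium channel genes 6 fell and 2 rose (1 rose without mutant replicates 1 and 2), with a median of -0.20. Over all genes 2.96% fell and 2.84% rose. Kcnf1, a silent subunit that modifies other voltage-gated channels, measured 9.90 to 11.20 (median 10.52) in controls and 8.76 to 9.45 (median 9.05) in mutants. It fell by 2.62-fold (limma adjusted p = 2.48e-05) without overlap. Kcnd2 (-1.18), the pore subunit of an A-type channel, and Kcnip1 (-0.98), the calcium-binding protein that accompanies such channels, fell, as did the inward rectifiers Kcnj4 (-1.04) and Kcnj3 (-0.87). The other Kcnip1 probe gave -1.19. Kcnc4, a subunit of rapidly closing channels, was higher (0.99), and Kcnip3 was higher (0.60) but did not pass when any 1 of 12 arrays was left out (adjusted p up to 0.0976). Kcnh3, a subunit of the ether-a-go-go family, measured 7.58 to 8.32 (median 7.89) in controls and 4.91 to 5.76 (median 5.34) in mutants and fell without overlap (limma adjusted p = 5.01e-10); it was detected on 8 control and 2 mutant arrays, so the size of the fall is not exact. Of 18 sodium, calcium and HCN channel genes, 3 fell and 1 rose, beside 2.96% and 2.84% of all genes. Cacna1h, a T-type calcium channel, measured 9.26 to 10.60 (median 10.10) in controls and 8.18 to 9.36 (median 8.94) in mutants (limma adjusted p = 0.00034), while Scn1a, a sodium channel, was higher by 0.88 (adjusted p = 0.0624 with median scaling).

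Of 33 G protein genes 3 were lower and 1 higher, beside 2.96% and 2.84% of all genes. Their median was 0.20, with 23 positive and 10 negative changes. Rgs12, which speeds the shut-off of G protein signals, measured 8.32 to 8.97 (median 8.57) in controls and 6.55 to 7.51 (median 7.08) in mutants. It fell by 1.57 ± 0.16 (limma adjusted p = 1.49e-06), with no overlap and the same direction on both chips. Gng7, a gamma subunit abundant in the striatum, was higher by 1.20 ± 0.19. Pde4d, a cyclic AMP phosphodiesterase, fell by 0.98 ± 0.16 without overlap, and Pde2a rose by 0.59, a call that ended without control replicate 3 (adjusted p = 0.0506).

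Neuropeptides and their receptors went opposite ways. Of 20 tested peptide genes 6 rose and 1 fell, with a median of 0.48 (5 rose and 1 fell without mutant replicates 1 and 2, median 0.30). Of 13 receptor genes 0 rose and 5 fell, with a median of -0.41. Tac1, the precursor of substance P, measured 6.33 to 7.97 (median 6.76) in controls and 7.88 to 9.03 (median 8.31) in mutants. It rose by 2.8-fold (limma adjusted p = 1.54e-05), and the overlap came from control replicate 8, which at 7.97 lay above the other controls. Npy, neuropeptide Y, measured 11.22 to 11.98 (median 11.50) in controls and 12.03 to 12.80 (median 12.18) in mutants, a rise of 0.76 ± 0.15 (limma adjusted p = 0.00247) without overlap of the groups. Trh (1.19), thyrotropin-releasing hormone, and Chga (0.80), a granin of secretory granules, rose, the latter not without mutant replicates 1 and 2 (adjusted p = 0.0757). The peptide gene that fell was Cartpt (-0.69). Among receptors, Ntsr1, a neurotensin receptor, lay at 7.27 to 8.69 (median 7.88) in controls and 5.35 to 6.55 (median 6.27) in mutants. It fell by 3.07-fold (limma adjusted p = 2.78e-05) without overlap. The cholecystokinin receptor Cckbr (-0.98) and the thyrotropin-releasing hormone receptor Trhr (detected on 6 control and 2 mutant arrays) fell, as did Prokr2 (-0.96), whose call ended without control replicate 1 (adjusted p = 0.0531) or 2 (0.052). Vipr2, a receptor of vasoactive intestinal peptide, was detected on 5 control and 0 mutant arrays and was at least 1.09-fold lower (limma adjusted p = 0.000782). Sst, the somatostatin precursor, measured 8.82 to 9.78 (median 9.45) in controls and 10.52 to 12.47 (median 11.73) in mutants, without overlap, and had the largest rise of the list (2.29). Pdyn, the dynorphin precursor, followed at 2.19, and its other probe read 0.80.

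Immediate early genes, which neurons transcribe within minutes of activity, were lower in mutants with uneven spread. Of 23 tested, 0 rose and 6 fell, 18 changes were negative, and the median was -0.62. The median was -0.79 on chip A and -0.26 on chip B, and without mutant replicates 1 and 2 it was -0.35 with 4 falls. Npas4, an activity-dependent transcription factor, measured 7.65 to 9.29 (median 8.98) in controls and 5.31 to 9.20 (median 7.30) in mutants. It changed by -1.50 ± 0.37 (limma adjusted p = 0.0175) but did not pass without mutant replicates 1 and 2 (adjusted p = 0.0509). Egr2, an immediate early zinc finger factor, measured 7.41 to 9.58 (median 9.09) in controls and 5.31 to 7.21 (median 6.57) in mutants. It fell by 2.39 ± 0.30 (limma adjusted p = 2.46e-05), and the groups did not overlap. Fosb (detected on 8 control and 3 mutant arrays) and Arc (-1.88) fell with overlap, and Gadd45b (-0.90) fell less. Rheb (-0.75), a small GTPase, did not pass without mutant replicates 1 and 2 (adjusted p = 0.0688). Fos (-0.81, limma adjusted p = 0.0781), Egr1 (-0.83, adjusted p = 0.0782) and Bdnf (-1.18, adjusted p = 0.124) had negative values that did not pass. The mean level of the list ran from 8.73 to 9.63 in controls and from 8.16 to 9.14 in mutants and overlapped, mutant replicate 8 lying among the controls.

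Promoters of called genes in these 2 groups are shown because transcription factors of the activity response bind known short motifs. The called immediate early genes all fell, 6 of 23 tested, while the called peptide genes went both ways. The 250 bases before the annotated start (RefSeq, GRCm38.p6) were searched on both strands for the cyclic AMP response element (CRE, TGACGTCA), for an Egr site (GCGTGGGCG or GCGGGGGCG) and for the CArG box of serum response factor. Of 32851 windows of this length, 1.55% held the CRE, 3.06% an Egr site and 1.47% a CArG box. Of the 6 immediate early genes called, 5 had a window; 1 of these held a CArG box (Egr2, in 4 of its 5 annotated starts), 1 an Egr site (Fosb) and 0 the CRE. Of the 7 peptide genes called, 2 held the CRE, Sst, which rose, and Cartpt, which fell, and 0 held either of the other motifs; no window shown held motifs of different kinds. The windows lie at chr10:67537316-67537565 (plus strand) for Egr2, chr7:19310046-19310295 (minus strand) for Fosb, chr16:23890845-23891094 (minus strand) for Sst and chr13:99900684-99900933 (minus strand) for Cartpt. Capitals mark the CArG box in Egr2, 72 to 63 bases before the start, the Egr site in Fosb, 50 to 42 bases before it, and the CRE in Sst (48 to 41) and Cartpt (112 to 105).
Egr2: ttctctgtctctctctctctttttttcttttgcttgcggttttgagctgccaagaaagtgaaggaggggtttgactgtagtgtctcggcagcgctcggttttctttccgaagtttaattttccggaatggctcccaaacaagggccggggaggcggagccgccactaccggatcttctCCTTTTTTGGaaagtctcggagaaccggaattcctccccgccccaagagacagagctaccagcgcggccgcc
Fosb: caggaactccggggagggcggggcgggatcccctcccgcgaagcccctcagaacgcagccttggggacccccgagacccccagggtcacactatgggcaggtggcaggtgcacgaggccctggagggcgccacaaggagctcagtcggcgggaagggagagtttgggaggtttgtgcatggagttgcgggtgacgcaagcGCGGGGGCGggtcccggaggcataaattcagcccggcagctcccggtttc
Sst: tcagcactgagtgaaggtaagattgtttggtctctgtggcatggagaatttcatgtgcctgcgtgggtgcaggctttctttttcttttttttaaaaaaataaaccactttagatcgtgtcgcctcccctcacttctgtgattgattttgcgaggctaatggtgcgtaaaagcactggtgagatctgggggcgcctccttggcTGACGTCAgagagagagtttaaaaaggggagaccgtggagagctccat
Cartpt: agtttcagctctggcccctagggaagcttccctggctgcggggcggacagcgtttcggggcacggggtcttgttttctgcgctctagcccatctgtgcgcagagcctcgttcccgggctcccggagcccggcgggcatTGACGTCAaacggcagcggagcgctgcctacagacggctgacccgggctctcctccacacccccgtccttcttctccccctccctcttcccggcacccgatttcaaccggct

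Periglomerular and dopaminergic genes went the other way from granule cell genes. Of 13 tested, 4 rose and 1 fell, with a median of 0.39 (3 rose and 1 fell without mutant replicates 1 and 2, median 0.35). Slc6a3, the dopamine transporter, measured 7.67 to 8.68 (median 8.18) in controls and 8.91 to 9.85 (median 9.62) in mutants. It rose by 2.55-fold (1.35 ± 0.15 on the log2 scale; limma adjusted p = 7.81e-06), and no mutant fell to the level of any control. Ddc, which makes dopamine from its precursor, rose by 1.00 ± 0.24 (limma adjusted p = 0.0124; 0.0613 with median scaling). Th, the rate-limiting enzyme of that pathway, was 0.70 and passed at 0.032 by limma, but not without mutant replicates 1 and 2 (adjusted p = 0.106) or when any 1 of 6 arrays was left out (adjusted p up to 0.0719). The calretinin gene Calb2 had 0.41 (limma adjusted p = 0.0779), which did not pass. The member that fell was Kcnip1. Htr3a, a serotonin-gated channel carried by many interneurons, measured 6.32 to 7.02 (median 6.72) in controls and 7.47 to 8.53 (median 7.81) in mutants and rose by 2.37-fold (limma adjusted p = 5.89e-05) without overlap.

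Genes that all inhibitory neurons share held no call. Of 6 genes for GABA synthesis and transport 0 rose and 0 fell, with a median of 0.0025 and values between -0.37 and 0.25. At an unadjusted limma p under 0.05 the list held 1 gene (16.7%), beside 18.8% of all genes tested. With 5.8% of all genes called, a list of 6 is too short for the absence of calls to set it apart. Of 20 transcription factors of the interneuron lineage, 5 fell, 0 rose and the median was -0.0029. The 5 were Meis1 (-0.83), Meis2, Pbx3, Bcl11a (-0.61) and Bcl11b (-0.76), the last not passing when any 1 of 10 arrays was left out (adjusted p up to 0.0854). Without mutant replicates 1 and 2 the counts were 4 lower and 2 higher. Meis1 measured 9.57 to 10.33 (median 9.86) in controls and 8.23 to 9.63 (median 9.09) in mutants, with a small overlap (limma adjusted p = 0.00446).

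Mitral and tufted cell genes leaned upward, with 2 of 13 higher, 1 lower and a median of 0.33. Slc17a7, the vesicular glutamate transporter VGLUT1, measured 9.21 to 10.27 (median 9.77) in controls and 10.10 to 11.46 (median 10.82) in mutants. It rose by 2.17-fold (limma adjusted p = 0.000103), with a slight overlap. Tbr1, a T-box factor of projection neurons, rose by 0.95 ± 0.20, and Doc2g fell by 0.72, with its other probe at -0.46 (limma adjusted p = 0.258). The defining markers Tbx21 (0.33), Eomes (0.29), Cdhr1 (0.08) and Reln (0.65) did not pass. Of 9 genes carried in sensory axons, 0 rose and 0 fell, with a median of 0.10. At an unadjusted limma p under 0.05 there were 0, beside 18.8% of all genes tested, and the list is short.

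Markers of neighbouring forebrain tissue are given beside these results. Of 14 tested genes of striatal and septal neurons, 5 were higher and 0 lower (also 5 and 0 without mutant replicates 1 and 2), with a median of 0.38; the mean level ran from 7.84 to 8.01 in controls and 8.40 to 8.69 in mutants. The 5 were Pdyn, Tac1, Syndig1l (1.46), Gng7 and Ppp1r1b. The dopamine receptors Drd1 (0.39, limma adjusted p = 0.165) and Drd2 (0.49, adjusted p = 0.0636), the striatal regulator Rgs9 (0.08) and the phosphodiesterase Pde10a (detected on 5 control and 2 mutant arrays) did not pass. Of 18 markers on the array, 4 were detected on no array, among them Adcy5, the main striatal adenylyl cyclase, and Rasgrp2. Of 13 tested genes of cortical and hippocampal excitatory neurons, 3 were higher (Slc17a7, Tbr1 and Lmo4, 0.89) and 1 lower (Mef2c, -0.83, not passing without control replicate 3, adjusted p = 0.0532), and the mean levels of 8.59 to 9.06 and 8.88 to 9.20 overlapped. Of 19 on the array, Neurod6 and Emx2 were detected on no array. The part of neighbouring tissue in the rises named here was not tested.

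**Figure D3:**
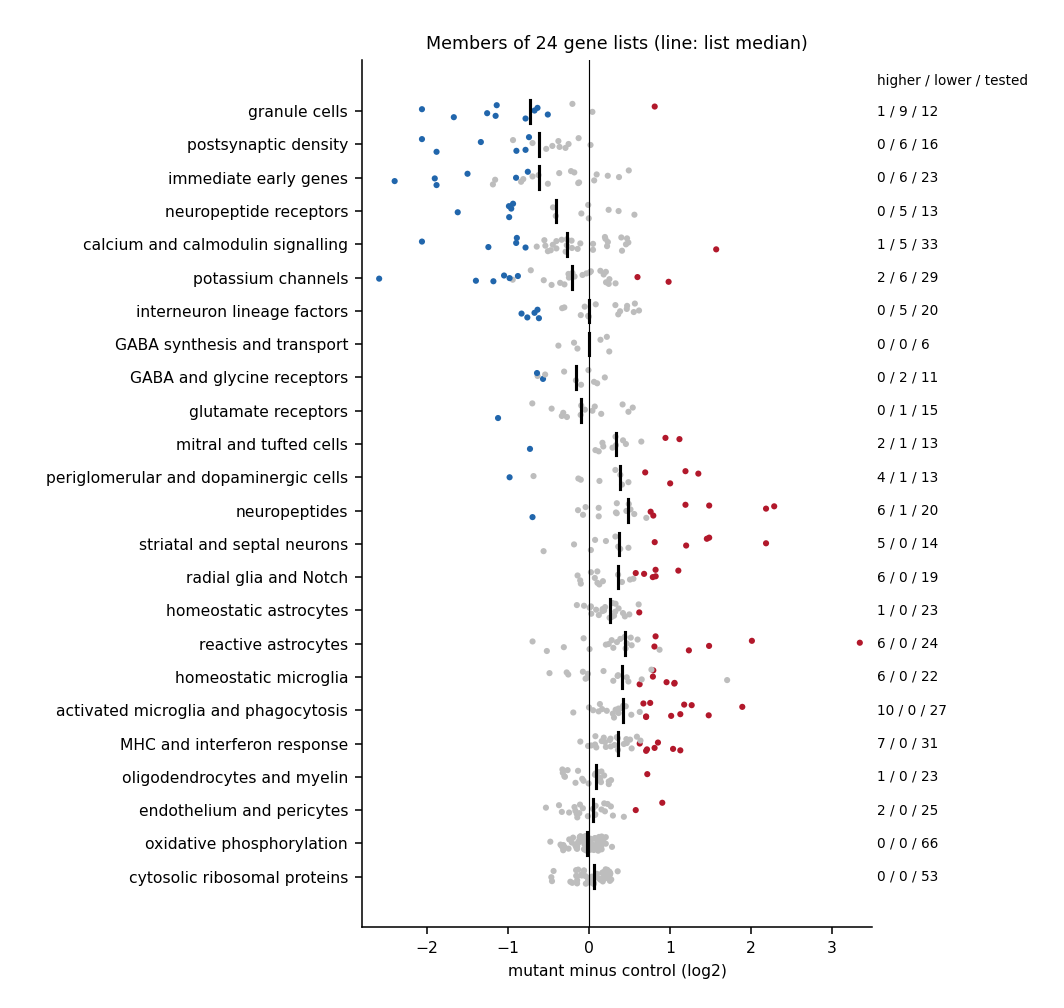
Change between mutant and control (log2) of every tested member of 24 gene lists, with called members in red (higher) and blue (lower), the list median as a line, and the counts higher, lower and tested on the right. The medians of the granule cell, postsynaptic and peptide receptor lists lie left of 0, and those of the astrocyte, microglia and peptide lists right of it. Some members of these lists lie on the other side of 0. Oxidative phosphorylation and ribosomal genes lie around 0 with no call.

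Genes of radial glia and Notch signalling rose together, 6 of 19 higher and 0 lower, with a median of 0.36, and again 6 and 0 without mutant replicates 1 and 2. These genes mark neural stem cells and are also active in astrocytes. Tnc, the matrix protein tenascin C, measured 5.89 to 7.51 (median 7.27) in controls and 7.37 to 8.5 (median 8.37) in mutants. It rose by 2.15-fold (limma adjusted p = 0.00135); of 2 further probes, one gave 0.79 and the other 0.17 (limma adjusted p = 0.654). Vim (0.82), an intermediate filament, and the Id proteins Id4 (0.83) and Id3 (0.79) rose. The receptors Notch3 (detected on 2 control and 7 mutant arrays) and Notch1 (0.68) rose too. Notch3 also stands in the list of endothelium and pericytes. Notch1 did not pass without chip as a block (limma adjusted p = 0.183) or without mutant replicates 1 and 2 (0.051). Ccnd2, a cyclin of dividing progenitors, rose by 1.08 ± 0.24 and was the only 1 of 8 proliferation genes called. Of 11 neuroblast genes 1 was called higher, Stmn2, which did not pass when any 1 of 11 arrays was left out (adjusted p up to 0.0943).

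Secreted signals changed in both directions. In the Wnt list 5 of 30 rose and 1 fell, beside 2.84% and 2.96% of all genes, with a median of 0.21. Wnt9b, a Wnt ligand, was detected on 0 control and 5 mutant arrays, lay at 4.68 to 4.87 (median 4.75) in controls and 5.57 to 6.73 (median 5.93) in mutants. Its level was at least 1.2-fold higher in mutants (limma adjusted p = 7.88e-06), and it entered the test only through the mutants. Sfrp2, a secreted inhibitor of Wnt ligands, measured 6.56 to 7.37 (median 6.98) in controls and 7.31 to 8.64 (median 8.16) in mutants and rose by 2.19-fold (limma adjusted p = 5.44e-05). Wnt7b (1.04) and Dkk3 (0.73) also rose, and Ccn4, a target of Wnt signalling, fell by 1.95, while its other probe read -0.83 (limma adjusted p = 0.000321). In the BMP, TGF beta and Shh list 5 of 29 rose and 2 fell, beside the same shares of all genes. Bmpr1b, a BMP receptor, rose by 0.87 ± 0.18, while Inhba, an activin subunit, fell by 1.25 ± 0.25. The BMP inhibitor noggin, Nog, was lower (-0.64) but did not pass without control replicate 2 (adjusted p = 0.0531) or 6 (0.0588).

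Growth factors and guidance cues included some of the clearest falls. Of 35 growth factor genes 4 fell and 0 rose, beside 2.96% and 2.84% of all genes, with a median of 0.07. Gdnf, glial cell line-derived neurotrophic factor, measured 5.95 to 6.85 (median 6.43) in controls and 4.80 to 5.98 (median 5.34) in mutants. It fell (limma adjusted p = 0.000328) with 1 small overlap, and since it was detected on 8 control and 2 mutant arrays, no fold is given. Fgf10 (-1.92) and Igfbp6 (-0.77) fell too, and Kitl, the ligand of Kit, was detected on 5 control and 0 mutant arrays and was at least 1.1-fold lower (limma adjusted p = 0.00684). Of 38 genes of axon guidance and migration, 3 rose and 4 fell, beside 2.84% and 2.96% of all genes. Without mutant replicates 1 and 2 the counts were 7 and 2. Prok2, prokineticin 2, a secreted peptide that attracts migrating neuroblasts into the bulb, measured 6.93 to 8.14 (median 7.59) in controls and 5.26 to 6.61 (median 5.58) in mutants. It fell (limma adjusted p = 7.24e-07), with every mutant below every control, and was detected on 8 control and 3 mutant arrays; its receptor gene Prokr2 is described above. Cxcr4, a chemokine receptor, was higher by 0.73 ± 0.17 without overlap, and Ephb1 was higher by 0.77. Crabp1, which binds retinoic acid in the cytoplasm, fell by 1.30 ± 0.20, the only 1 of 10 retinoic acid genes called.

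Reactive astrocyte genes rose, 6 of 24 higher and 0 lower, with a median of 0.45. Without mutant replicates 1 and 2 the counts were 6 higher and 2 lower and the median 0.28. The mean level of the list ran from 7.05 to 7.46 in controls and 7.57 to 8.48 in mutants without overlap, mutant replicate 1 lying highest. Gfap, the astrocyte intermediate filament, rose without overlap (1.48), and Serpina3n (2.01) rose with a wide spread among mutants. Lcn2, lipocalin 2, was detected on 1 control and 8 mutant arrays, measured 4.94 to 6.38 (median 5.18) in controls and 7.14 to 11.71 (median 8.03) in mutants, and rose without overlap (limma adjusted p = 0.000108). Aspg measured 5.13 to 6.16 (median 5.37) in controls and 5.80 to 8.32 (median 6.50) in mutants and rose (limma adjusted p = 0.00844), detected on 3 control and 7 mutant arrays, while Gbp2, a guanylate-binding protein, rose by 0.81. Genes of homeostatic astrocytes leaned upward, 21 of 23 with positive changes, but only 1 was called (Entpd2, not when any 1 of 8 arrays was left out, adjusted p up to 0.0707) and a median of 0.26.

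Microglial genes were higher, most clearly those of activation and phagocytosis. Of 27 such genes 10 rose and 0 fell, with a median of 0.42; without mutant replicates 1 and 2, 8 rose and the median was 0.28. The mean level ran from 8.31 to 8.64 in controls and 8.80 to 9.48 in mutants, so the groups did not overlap, and mutant replicates 1 and 7 lay highest. Lyz1, lysozyme, measured 9.40 to 10.79 (median 10.35) in controls and 11.08 to 12.05 (median 11.51) in mutants. It rose by 2.41-fold (limma adjusted p = 0.000175), with no overlap; Lyz2 (1.18) is a near-identical copy, and the probes may share signal. Cd52, a surface glycoprotein of leukocytes and microglia, measured 5.87 to 7.46 (median 7.12) in controls and 7.58 to 9.0 (median 8.29) in mutants and rose by 2.79-fold (limma adjusted p = 0.00047). Timp2, an inhibitor of metalloproteases, rose by 0.67 ± 0.14 at a high level without overlap, and Tlr2 (0.76), a receptor of innate immunity, also rose. C4b, a complement component that is in none of these lists, measured 6.14 to 7.19 (median 6.68) in controls and 7.27 to 8.85 (median 8.01) in mutants and rose without overlap (limma adjusted p = 0.000209).

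The list of homeostatic microglia held 6 rises of 22, no falls and a median of 0.42, but only 2 rises without mutant replicates 1 and 2. The complement genes C1qa (1.06), C1qb (1.06) and C1qc (0.96) rose; C1qb did not pass without control replicate 1 (adjusted p = 0.056), 3 (0.0578) or 6 (0.0543). Trem2 (0.80) did not pass when any 1 of 11 arrays was left out (adjusted p up to 0.0887). The surface markers that define resting microglia, Cx3cr1 (0.30), P2ry12 (-0.25) and Tmem119 (0.18), did not pass. In the MHC and interferon list 7 of 31 rose, 0 fell and 29 changes were positive, with a median of 0.36, but 3 rises were left without mutant replicates 1 and 2. Cd74, the invariant chain of MHC class II, measured 5.44 to 6.73 (median 6.52) in controls and 6.77 to 8.59 (median 7.32) in mutants and rose by 2.19-fold (limma adjusted p = 0.00428) with separate groups. H2-Ab1, a class II beta chain, rose by 1.04 ± 0.22; its 3 other probes gave 0.72, 1.45 and 0.50. B2m, the light chain of class I, was 0.71 and did not pass without mutant replicates 1 and 2 (adjusted p = 0.0636) or with median scaling (0.0869). B2m also stands in the list of reference genes, which held 2 rises of 10 (B2m and Gusb) and a median of -0.01, and 0 rises without mutant replicates 1 and 2. Gusb (0.67) did not pass without them (adjusted p = 0.0519), and its other probes read 0.37 (adjusted p = 0.213) and 0.16 (0.71).

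**Figure D4:**
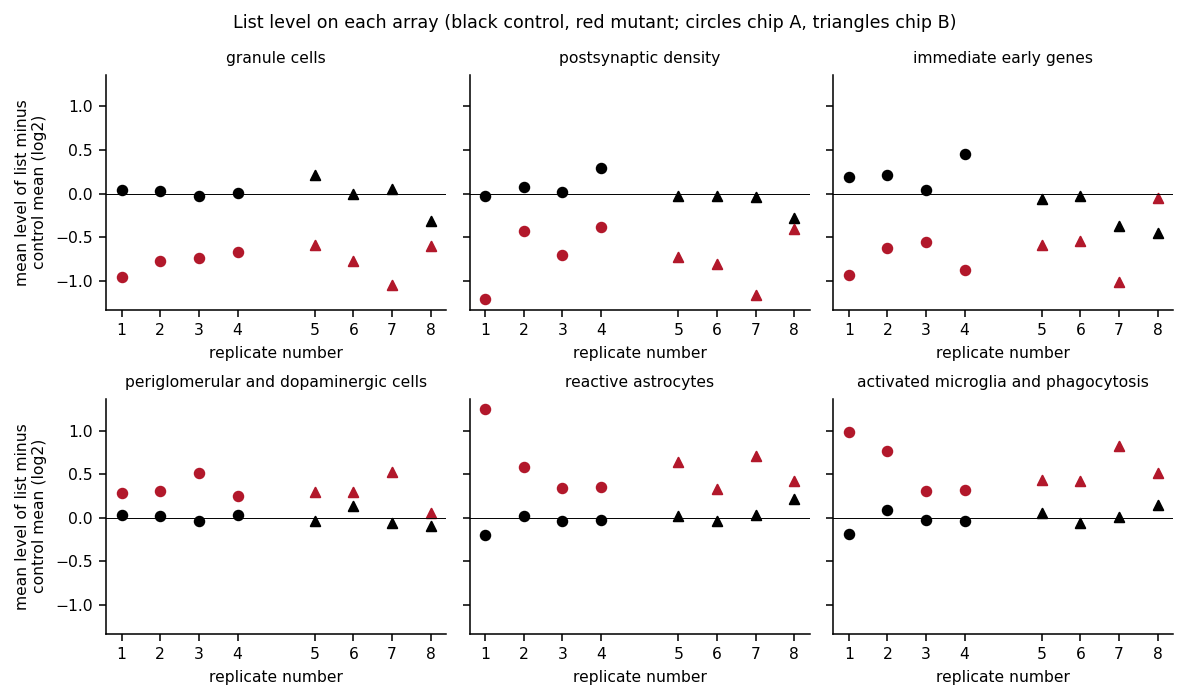
Mean level of 6 gene lists on each array, in log2 units relative to the mean of the 8 controls, by replicate number (black control, red mutant; circles chip A, triangles chip B). Mutants lie apart from controls in the granule cell, reactive astrocyte and activated microglia panels, while control replicate 8 lies toward the mutants and mutant replicate 8 overlaps the controls for immediate early genes.

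Other cell classes held few calls, not far from the share over all genes (5.8%), and housekeeping functions held none. Of 23 oligodendrocyte and myelin genes 1 was called, of 10 genes of their precursors 0, of 25 endothelial and pericyte genes 2 and of 20 genes of meninges and fibroblasts 1, with medians between 0.05 and 0.19. No gene was called among 66 of oxidative phosphorylation, 53 of cytosolic ribosomal proteins, 28 of the proteasome, 18 of cholesterol synthesis and 17 of glycolysis, with medians between -0.04 and 0.07. At an unadjusted limma p under 0.05 these lists held 2 (3.03%), 3 (5.66%), 1 (3.57%), 2 (11.1%) and 6 genes (35.3%) in that order. The share over all genes tested was 18.8%, so glycolysis lay above it and the others below. In the stress and p53 list 4 of 34 fell and 1 rose. Cdkn1a, a cell cycle inhibitor, measured 10.82 to 12.36 (median 11.92) in controls and 9.95 to 12.29 (median 10.23) in mutants, and mutant replicate 1 alone lay among the controls (limma adjusted p = 0.00344). Its other probes read -0.97 (limma adjusted p = 0.0107) and -0.80 (0.126). Atf3, a stress-induced factor, was detected on 7 control and 0 mutant arrays and was at least 1.27-fold lower. Sprr1a, known from injured neurons, rose by 1.38 ± 0.26, and Nfil3, which represses clock genes, fell by 0.99 ± 0.19.

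Several changes outside these lists were among the largest or most sharply separated. Gcnt1, a glycosyltransferase of O-glycans, measured 8.43 to 9.25 (median 9.0) in controls and 6.90 to 8.10 (median 7.15) in mutants and fell by 3.01-fold (limma adjusted p = 8.03e-06); its other probe read -1.43. Frmd3 (-1.65), a membrane scaffold, and Rin1 (-1.66), a Ras effector of forebrain neurons, fell. Slc12a8, a solute carrier, measured 6.93 to 7.58 (median 7.14) in controls and 5.20 to 6.13 (median 5.42) in mutants and fell (limma adjusted p = 2.5e-07), detected on 8 control and 2 mutant arrays. Pdlim4, an actin-associated protein, measured 8.79 to 9.68 (median 9.11) in controls and 10.32 to 11.12 (median 10.39) in mutants and rose by 2.61-fold (limma adjusted p = 9.15e-06); neither gene overlapped between groups.

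A few genes were detected in every sample of 1 group and in none of the other. Slc38a8, an amino acid transporter, was detected on 8 control and 0 mutant arrays, at 6.60 to 7.66 (median 6.94) and 5.16 to 5.55 (median 5.39), and was at least 2.4-fold lower (limma adjusted p = 2.45e-07). Chrna10, a nicotinic receptor subunit, was at least 2.21-fold lower. In the opposite direction, Rftn1, a lipid raft protein, was detected on 0 control and 8 mutant arrays, a level at least 1.6-fold higher (limma adjusted p = 0.000702), and Stk32b, a kinase, at least 1.25-fold higher. A further 3 probes without a gene name behaved likewise, 1 lower and 2 higher in mutants. A bound is the mean over all arrays of the group with detections, set against the mean of the group without. In the latter, each array gave the larger of the gene's own value and the dimmest signal that counted as detected.

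Because mutants and controls differ in their alleles at Tshz1, its neighbours on chromosome 18 were looked at as a group. Of 24 tested genes nearest to it, 15 before and 9 after in RefSeq order, 1 rose and 2 fell, with a median of -0.002. The falls were Zfp236 (-0.93), the second tested gene before it, and Neto1 (-1.08), the sixth after it, an accessory protein of glutamate receptors, which showed no overlap. The rise was Slc14a1 (0.83), a urea transporter, which did not pass when any 1 of 4 arrays was left out (adjusted p up to 0.0563). Over all of chromosome 18, 4.78% of 230 genes were called.

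The P30 changes were last set beside those of E18.5 bulbs. In its own fit of 16 arrays the earlier comparison called 75 of 10852 genes (0.691%). Of 9613 genes tested at both ages 45 were called at both, which is 62.5% of the 72 such genes called at E18.5 and 8.32% of the 541 called at P30. Of the 45, 40 were lower at both ages, 3 higher at both (Wnt9b, Npr3 and Fhdc1) and 2 opposite. The shared falls included Ntsr1 (-1.85 at E18.5 and -1.62 at P30), Crabp1 (-1.69 and -1.30), Sp7 (-1.59 and -1.85), Adamts19 (-1.52 and -1.77) and Cpne6 (-0.93 and -1.15). Rbfox3, the neuronal splicing factor known as NeuN, was also among them (-0.74 and -1.33). Npr3, the clearance receptor of natriuretic peptides, rose by 0.76 and 0.89. The opposite genes were Th (-0.81 and 0.70) and Nkx2-2 (-0.52 and 0.72), whose P30 calls were among the weak ones; Nkx2-2 did not pass when any 1 of 10 arrays was left out (adjusted p up to 0.097), and its other probe gave 0.24.

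**Figure D5:**
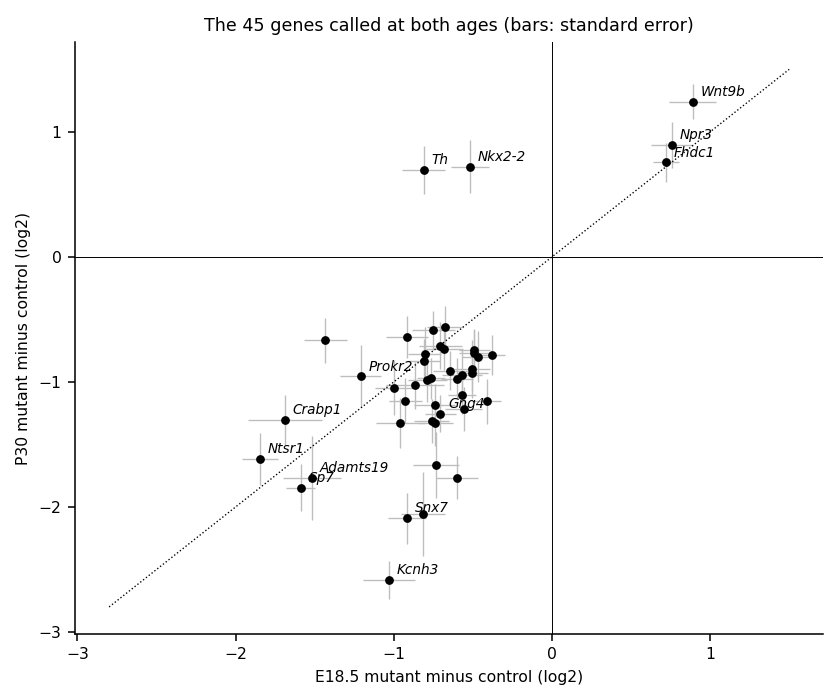
Change between mutant and control (log2) at E18.5 (horizontal axis) and at P30 (vertical axis) for the 45 genes called in both, with standard errors as bars and the dotted line marking equal change. The 40 shared falls lie in the lower left, and Th and Nkx2-2 lie in the upper left.

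The difference between the 2 ages was tested directly over all 32 arrays and passed for 364 of 11312 genes (3.22%), with the P30 change higher for 200 (1.77%) and lower for 164 (1.45%). The count was 209 without chip as a block and 178 with median scaling. Pdlim4 changed by -0.16 at E18.5 and 1.33 at P30 in that fit (limma adjusted p of the difference = 5.86e-06), and Sfrp2 by -0.23 and 1.23 (9.31e-06). The difference also passed for Slc12a8 (-0.13 at E18.5; limma adjusted p of the difference = 4.97e-08) and Slc38a8 (-0.30 at E18.5; 1.38e-08), whose P30 falls end near or below background and so give no exact size. For Ntsr1, Crabp1, Meis1 and Cpne6 the difference did not pass (limma adjusted p = 0.88, 0.909, 0.975 and 0.689). Each age lay on its own chips, and the mutants carried GFP/delta at E18.5 but flox/GFP with Nestin-Cre at P30, so age, allele and chip cannot be told apart.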

How the data were processed

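Bulb RNA of 32 samples was measured on Illumina MouseRef-8 bead arrays. The authors deposited raw probe intensities and detection p-values, made with GenomeStudio per the submitters' processing notes, and normalized intensities, of which 25.7% lie below 0 and which served as an alternative. The P30 raw intensities were corrected for background and quantile normalized among their 16 arrays with limma's neqc (R 4.3.3, limma 3.58.1, offset 16) to log2 values, which are not the authors' deposited values. Array medians before this ran from 100.2 to 129.8. Arrays give no read depth, so the number of samples limits precision. A probe entered with a detection p-value under 0.05 on at least 4 of 16 arrays, and each gene was represented by its brightest probe. Of 25697 probes 23978 carried 1 gene symbol and 1719 none.

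Genotype was tested with lmFit and eBayes with chip as a block, two-sided, with Benjamini-Hochberg adjustment over 9928 genes at 0.05, and the difference between the ages over all 32 arrays. The 58 gene lists overlap, and members and lists were chosen with earlier results of these data known. Named genes were ranks 11 to 20 by change, the 10 smallest p-values, up to 3 members per list by p and 5 genes per direction for age; others were chosen after their values were seen. The test was run on simulated data with known changes, with independent noise of the same SD in both groups. That run does not cover the larger spread among the mutants or samples that stand apart together. Same-numbered samples of the groups correlated between -0.0704 and 0.417 in their deviations from group means, and the closest match lay at the shared number for 2 controls and 3 mutants, so the numbers were not taken to pair samples. Alternatives were chip, replicate number, background correction, scaling, the authors' values, filters, probes and leaving out samples; leaving out mutant replicates 1 and 2, alone or with control replicate 4, was added after the data were seen.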

Additional observations from a re-analysis of the deposited data

Results flagged for a closer look

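In groups of 8, a sample was singled out where its gap to the next one, over the range of the group, passed Dixon's 95% critical value. Chance alone does so in about 1 of 20 groups, and 38 of 340 groups looked at had such a sample, 21 of 224 for named genes and 17 of 116 for list levels. Control replicate 8 was the far sample in 15 of them and mutant replicate 1 in 10. For control replicate 8 these were Tac1 (7.972 against 6.332 to 6.994), Lcn2 (6.379 against 4.939 to 5.498), Cpne6 (12.84 against 13.58 to 14.19), Ppp1r1b (8.714 against 9.325 to 9.718), Cdkn1a (10.82 against 11.68 to 12.36), B2m (11.13 against 10.08 to 10.49), Pcdh10 (8.064 against 8.925 to 9.676) and Cpne4 (12.12 against 12.71 to 12.97), in log2 normalized intensity against the range of the other 7 samples of its group. For mutant replicate 1 these were Lgals3 (10.78 against 8.144 to 9.06), Serpina3n (12.16 against 9.418 to 10.65), Cdkn1a (12.29 against 9.947 to 10.75), Slc6a3 (8.906 against 9.432 to 9.846) and Slc12a8 (6.134 against 5.195 to 5.606). For control replicate 1 this was Serpina3n (6.992 against 8.156 to 8.897). For mutant replicate 7 these were Gng7 (9.74 against 10.67 to 11.45) and Nrgn (6.409 against 8.349 to 9.989). For mutant replicate 8 this was Fosb (7.084 against 5.247 to 5.944). For mutant replicate 6 this was Syt6 (6.884 against 5.072 to 5.775). For control replicate 2 these were Tnc (5.886 against 7.042 to 7.506) and H2-Ab1 (7.49 against 6.505 to 6.925). For control replicate 4 this was Ntsr1 (8.693 against 7.267 to 7.938).

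The mean levels of gene lists, in log2 units relative to the mean of the controls, are given the same way. In control replicate 4 the lists set apart were acetylcholine and monoamine receptors (0.325 against -0.1965 to 0.04772) and neuropeptide receptors (0.1676 against -0.08765 to 0.02937). In control replicate 8 the lists set apart were axon guidance and migration (-0.2931 against 0.003001 to 0.1505); cyclic nucleotide signalling (-0.194 against -0.02138 to 0.07779); granule cells (-0.3129 against -0.02954 to 0.2096); interneuron lineage factors (-0.411 against -0.09406 to 0.1519); p53, apoptosis and stress (-0.07018 against -0.009957 to 0.03447); sodium, calcium and HCN channels (-0.2668 against -0.05554 to 0.09956) and synaptic adhesion and organizers (-0.2622 against -0.02107 to 0.07331). In mutant replicate 2 the lists set apart were cytoskeleton maturation (0.5322 against 0.004088 to 0.1672) and neuropeptides (0.9257 against 0.416 to 0.6572). In mutant replicate 1 the lists set apart were endothelium and pericytes (-0.5367 against -0.08955 to 0.305); neuropeptide receptors (-0.7245 against -0.4284 to -0.2384); oligodendrocyte precursors (-0.2885 against 0.06165 to 0.2874); p53, apoptosis and stress (0.2704 against -0.08997 to 0.0335) and reactive astrocytes (1.242 against 0.3264 to 0.7098). In control replicate 5 the list set apart was mitral and tufted cells (-0.2863 against -0.04761 to 0.1564).

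The change between mutant and control differed between the ages by the direct test over all 32 arrays (limma adjusted p from 2.14e-10 to 9.31e-06) for the 5 genes with the smallest p in each direction. Pdyn changed by 0.23 at E18.5 and 2.14 at P30, a difference of 1.91. Dlk1 changed by 0.24 at E18.5 and 3.60 at P30, a difference of 3.36. Pdlim4 changed by -0.16 at E18.5 and 1.33 at P30, a difference of 1.49. Gfap changed by -0.07 at E18.5 and 1.46 at P30, a difference of 1.53. Sfrp2 changed by -0.23 at E18.5 and 1.23 at P30, a difference of 1.45. Chrna10 changed by -0.13 at E18.5 and -2.68 at P30, a difference of -2.55. Ccn4 changed by 0.16 at E18.5 and -2.17 at P30, a difference of -2.32. Slc38a8 changed by -0.30 at E18.5 and -2.15 at P30, a difference of -1.85. Kcnh3 changed by -0.90 at E18.5 and -3.18 at P30, a difference of -2.28. Slc12a8 changed by -0.13 at E18.5 and -2.19 at P30, a difference of -2.06. Of these genes some lay near background in a P30 group, so that the printed P30 changes and differences are fitted values and no exact sizes: Chrna10 and Slc38a8 were detected on 0 of 8 mutants and were at least 2.21-fold and at least 2.4-fold lower, Kcnh3 and Slc12a8 were detected on 2 of 8 mutants, and Dlk1 on 3 of 8 controls. Age, allele and chip cannot be told apart in this difference.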

How the results depend on the processing

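The count of 576 genes (282 higher, 294 lower) became 137 (43 and 94) on chip A alone and 194 (90 and 104) on chip B alone, with 8 samples each. It was 430 without the chip block and 565 without background correction. With median scaling it was 528, and the balance moved toward falls (214 higher and 314 lower). It was 529 with the authors' values, 598 with 32 arrays normalized together and 549 with detection on at least 8 arrays. Without a filter it was 485, over every probe 705 and with a variance trend 591. Leaving out each sample in turn gave 433 to 621 genes, 201 to 302 higher and 229 to 331 lower, and 0 to 0 for the difference between chips. At an unadjusted limma p under 0.05 the difference between chips held 442 genes in the full fit. That count ran from 308 without control replicate 8 to 902 without mutant replicate 3, so it depended on single samples. Without mutant replicates 1 and 2 and control replicate 4, 584 genes were called, 423 of them calls of the full comparison in the same direction. With the replicate number as a block the counts were 539, 266 higher and 273 lower, of which 487 were calls of the full comparison, and 380 for the difference between the ages. That difference fell from 364 genes to 209 without the chip block and to 178 with median scaling, and leaving out single P30 samples gave 265 to 488. Of 192 called genes followed one by one, 0 changed direction, 45 kept their call in every alternative, 38 lost it without some single sample, 37 without mutant replicates 1 and 2, and 12 with the replicate block. The cause of the losses was not tested. Levels near the array background give only bounds on a fold change.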
